A study of Mus musculus with 8 samples.

Results

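The clustered protocadherin genes lie in 1 run on mouse chromosome 18, and a window of 970 kb over them, from 37050001 to 38020000 on the mouse build mm9, was examined for the histone mark H3K27me3 in liver. The window was defined by genome position and was divided into 97 bins of 10 kb, of 263520 such bins between the chromosome starts and the last islands listed. RefSeq's table of GRCm38.p6, used here for names and order, lists 58 clustered protocadherin genes among 49997 genes: 14 Pcdha, 22 Pcdhb and 22 Pcdhg. Flanks of 500 kb on each side were examined in the same way. The mark was profiled by chromatin immunoprecipitation sequencing (ChIP-seq) in the liver of outbred CD-1 mice, all males and 7 weeks old. Of the 6 livers, 3 came from mice given TCPOBOP at 3 mg/kg, an agonist of the nuclear receptor CAR, and 3 from mice given the vehicle, 1% DMSO in corn oil. All livers were collected 3 h after injection, and each replicate was a separate animal. Fragments of 600 to 1100 bp gave 6 libraries, 1 per liver, and fragments over 1100 bp gave 1 further library from the ChIP sample of replicate 1 of each treatment. The titles of these further libraries also call the fragments digested, a word that the titles of the other 6 lack.

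Protocadherins are adhesion proteins of the cadherin superfamily. The clustered ones are best known from neurons, where each cell expresses its own few members and so carries a surface identity used in self-recognition. In the Pcdha and Pcdhg groups each variable first exon has its own promoter and is spliced to constant exons that the whole group shares, whereas Pcdhb genes have no such shared exons. H3K27me3 is laid down by Polycomb repressive complex 2 and marks repressed genes, often over broad domains. In gene order the run goes from Pcdha1 to Pcdha12 and the C-type Pcdhac1 and Pcdhac2, then Pcdhb1 to Pcdhb22, then Pcdhga1 to Pcdhgc5. Slc25a2, a mitochondrial carrier gene, and Taf7, a subunit gene of the general transcription factor TFIID, sit between Pcdhb22 and Pcdhga1. The Pcdhg group ends with the C-type Pcdhgc3, Pcdhgc4 and Pcdhgc5. An mm9 annotation was not used here, so the stretches called Pcdha (37090001 to 37350000), Pcdhb (37420001 to 37690000) and Pcdhg (37830001 to 38010000) are approximate, and no island was assigned to a single gene.

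The data are island lists, 1 per library: an island is a run of enriched windows of 400 bp and carries a score. The 6 lists of 600 to 1100 bp held 6295 to 14748 islands over 174 to 340 Mb, with median widths of 12.8 to 26.8 kb. The 2 lists of fragments over 1100 bp covered 654 and 676 Mb. Read depth is unknown, since the lists hold no read counts, and cover is the percent of a stretch under islands. Albumin is a defining product of hepatocytes, and cover over Alb and its neighbour Afp was 0% in each of the 8 lists.

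Islands were concentrated at the Pcdhg end of the window. Of the Pcdhg stretch, islands took up 67.1, 75.1 and 58.7% with vehicle and 78.7, 73.3 and 50.2% with TCPOBOP, for replicates 1, 2 and 3. Every liver had at least 50% of this stretch covered, and the treatments overlapped. Cover of Pcdha was 6, 13.2 and 11.2% with vehicle and 12, 23.1 and 12.8% with TCPOBOP, so no liver came near its own Pcdhg value. Cover of Pcdhb was 0, 0 and 8.44% with vehicle and 6.81, 0 and 6.52% with TCPOBOP, with no island in 3 of 6 livers. Pcdhg cover exceeded Pcdhb cover in 6 of 6 livers, by 63.6 ± 13.3 percentage points (SD, n = 6, exact sign-flip permutation p = 0.031). It exceeded Pcdha cover in 6 of 6 livers by 54.1 ± 11.0 percentage points (SD, n = 6, exact sign-flip permutation p = 0.031). Pcdha exceeded Pcdhb by 9.42 ± 7.55 percentage points (SD, n = 6, exact sign-flip permutation p = 0.031), but by 2.45 with p = 0.375 when every list was cut to the same covered length. These tests were two-sided, and 0.031 is the smallest p that 6 livers can give. They belong to 8 comparisons between stretches, flanks included, made after the data were seen. Adjusted over the 8 each p was again 0.031, which 8 equal p-values must give, so the adjustment adds no support.

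**Figure D1:**
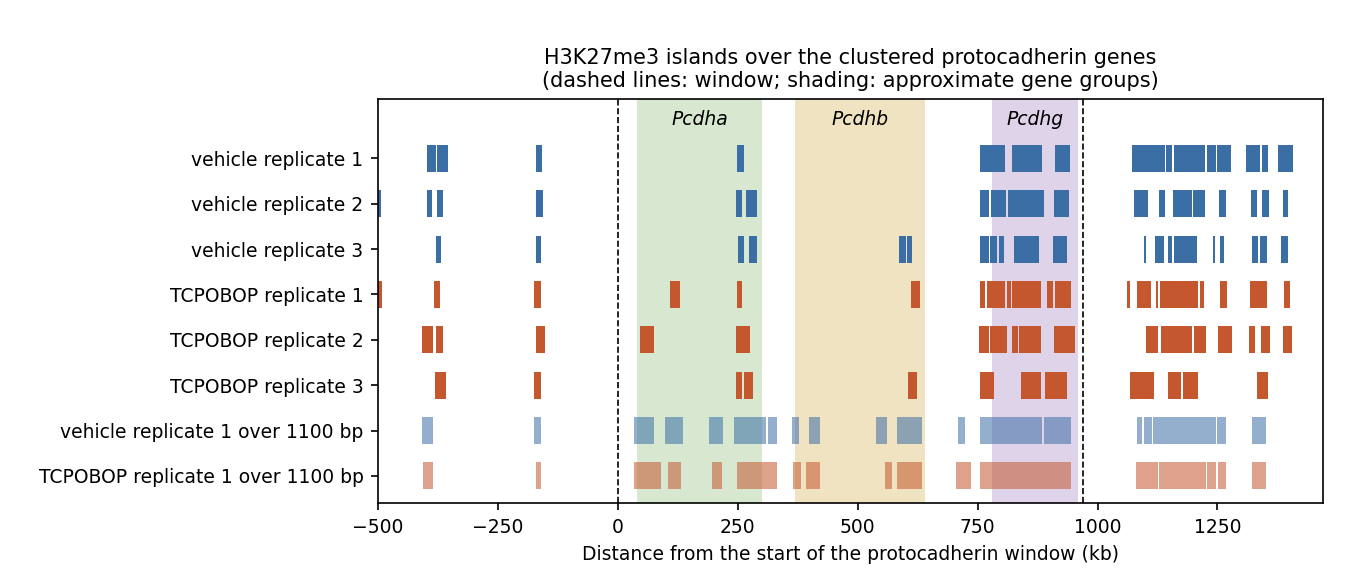
Islands of each of the 8 lists as bars, by distance in kb from the start of the protocadherin window, with 500 kb flanks, dashed lines at the window ends and shading over the approximate Pcdha, Pcdhb and Pcdhg stretches. All 8 lists hold islands over Pcdhg and at least 1 near the end of Pcdha. The stretch between them is mostly empty in the 6 livers and partly filled in the 2 lists of fragments over 1100 bp.

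Cover of the whole window was 16.7, 19.6 and 18.6% for vehicle replicates 1, 2 and 3, with 21.9, 22.3 and 17.1% for TCPOBOP. These are 1.21 to 2.42 times the cover of the autosomes in the same list, and for Pcdhg alone 4.88 to 7.83 times. Among 2536 windows of 970 kb tiled along the autosomes, 67.9 to 86.9% had lower cover than this one in the 6 livers. The window therefore held more of the mark than most, without standing at the top of any list. Of the 97 bins, 10 were at least 50% covered in all 6 livers, which is 10.3%, against a background of 2.69% of all bins. In the flank after the window the share was similar, at 6 of 50 bins or 12%, and in the flank before it 2 of 50 or 4%. Of these 10 bins, 7 lay in Pcdhg, 1 in Pcdha and none in Pcdhb, and the other 2 lay just before the Pcdhg stretch. At the other extreme, 58 bins had no island in any of the 6 livers.

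**Figure D2:**
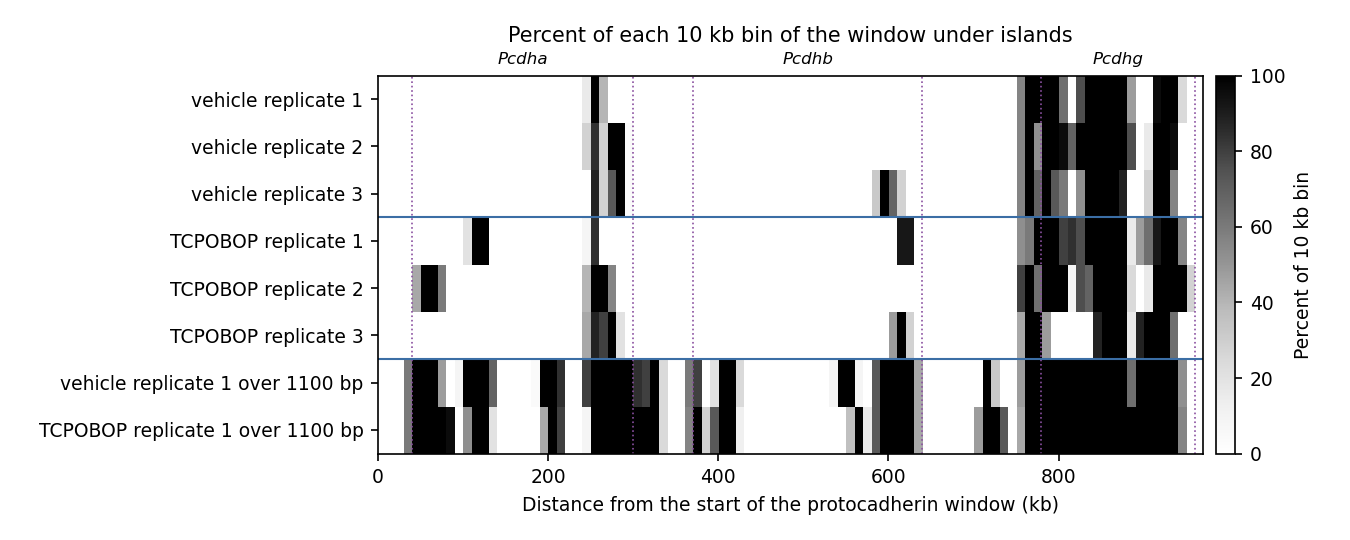
Percent of each 10 kb bin of the window under islands, from white at 0 to black at 100, by distance in kb from the window start, with the 3 vehicle livers above the 3 TCPOBOP livers and the 2 lists of fragments over 1100 bp at the bottom. Dotted lines bound the approximate gene groups. Dark bins recur in all rows over Pcdhg, and the 58 bins that are white in all 6 livers lie mainly in and between Pcdha and Pcdhb.

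Over Pcdhg the islands formed a group whose start varied less between livers than its end. For vehicle the first island began at 37804401 in all 3 livers, and at 37804801, 37802001 and 37805601 in TCPOBOP replicates 1, 2 and 3. The start thus lay ahead of the approximate Pcdhg stretch and varied by 3.6 kb over 6 livers, which is 9 windows of the 400 bp grid. Of 841 autosomal regions present in all 6 livers, 18.1% had starts that varied as little or less, and the median was 9.6 kb. The last island ended at 37992400, 37989600 and 37985600 for vehicle and at 37995600, 38002800 and 37986400 for TCPOBOP. This end varied by 17.2 kb. It is not set against those regions, since the group is more than 1 of them. The region that holds the start of the group ran from 37802001 to 37937600. Its end varied by 8.8 kb, near the median of 9.2 kb for the ends of the 841 regions. The group spanned 180.8 to 200.8 kb, with a median of 186.6 kb. Vehicle spans averaged 185 ± 3.42 kb, and TCPOBOP spans were 6 kb longer on average with an SD of 10 kb (n = 3 each, exact permutation p = 0.5). The edges were examined after the islands had been seen, and they are given as a description.

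**Figure D3:**
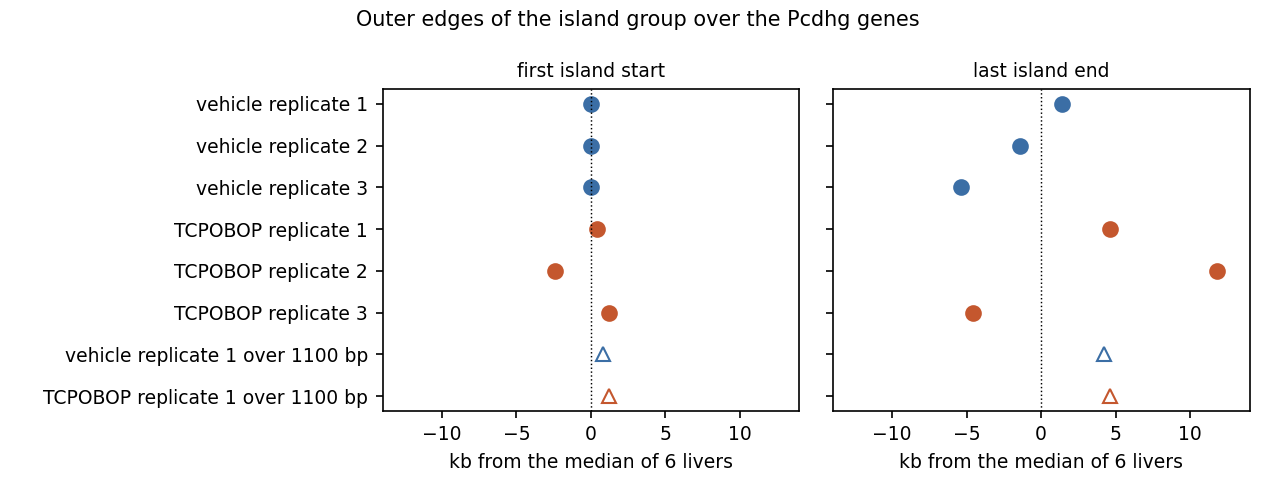
Start of the first and end of the last island of the Pcdhg group in each of the 8 lists, in kb from the median of the 6 livers; circles are libraries of 600 to 1100 bp and triangles those of fragments over 1100 bp, with vehicle in blue and TCPOBOP in orange. The starts of the 3 vehicle livers coincide and the 6 starts lie within 3.6 kb, while the 6 ends spread over 17.2 kb.

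Inside the group, 2 cores were shared by every liver. The longer ran from 37891201 to 37928800 (37.6 kb) and the second from 37960801 to 37985600 (24.8 kb), and both cores were fully covered in all 8 lists. Shorter shared stretches followed at 10 kb (37805601 to 37815600), 7.2 kb (37301201 to 37308400) and 6.8 kb (37828001 to 37834800), the 7.2 kb one being in Pcdha. Between the 2 cores each of the 6 livers had a gap in its islands. It measured 25.6, 20.8 and 28.4 kb in vehicle replicates 1, 2 and 3, 26 kb in TCPOBOP replicate 2 and 9.6 kb in TCPOBOP replicate 3. TCPOBOP replicate 1 had an island of 11.2 kb there, with gaps of 13.6 and 4.4 kb beside it. The part of it free of islands in all 6 livers was 3.6 kb, from 37937601 to 37941200. In fragments over 1100 bp the gap here shrank to 3.6 kb for vehicle, while for TCPOBOP 1 island of 190 kb ran across. TCPOBOP replicate 3 differed from the others in a gap of 56.4 kb before the first core, from 37834801 to 37891200, where each of the other 5 livers had islands. Its list was also the shortest of the 8, with 6295 islands.

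By score, which is the authors' own value and was ranked within a list only, the island over the first core was the highest in the window in 5 of 6 livers. For vehicle its ranks were 331 among 10057 islands, 170 among 14748 and 213 among 12430, and for TCPOBOP replicates 1 and 2 they were 207 among 13759 and 402 among 10197. In TCPOBOP replicate 3 the island over the second core came first, at 438 of 6295, and that over the first core followed at 456. In the lists of fragments over 1100 bp the leading island, over the first core in both, ranked 288 of 17577 for vehicle and 88 of 22077 for TCPOBOP. The leading Pcdhg island thus stood in the top 0.399 to 6.96% of each of the 8 lists by score. Score per kb placed the same islands in the top 2.31 to 22.9%. High ranks were not peculiar to Pcdhg, since the flank after the window held islands of similar rank. For TCPOBOP replicate 2 the leading flank island ranked 395, ahead of Pcdhg at 402. It came behind Pcdhg for TCPOBOP replicates 1 and 3, at 282 and 963. The same held for vehicle replicates 1, 2 and 3, with flank ranks of 573, 1117 and 334. By score per kb the island over the second core ranked higher than that over the first in 4 of 6 livers, at 199, 491 and 580 in the vehicle livers and 977 in TCPOBOP replicate 1. In TCPOBOP replicates 2 and 3 it ranked 950 and 1444, against 656 and 1090 for the first core.

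In Pcdha, an island near the end of the stretch was found in all 8 lists. It began between 37295601 and 37301201 in the 6 livers and was 15.6, 11.2 and 11.6 kb wide with vehicle and 9.2, 29.6 and 13.2 kb wide with TCPOBOP. The gene order places Pcdhac1 and Pcdhac2, the C-type members, last in this group. The island was narrow but dense in some lists. By score per kb it ranked 781 of 10057, 2162 of 14748 and 1402 of 12430 with vehicle. With TCPOBOP it ranked 288 of 13759, 4189 of 10197 and 277 of 6295. A second island behind it, from 37317201, 37322801 and 37312001 onwards, was listed in vehicle replicates 2 and 3 and TCPOBOP replicate 3. Elsewhere in Pcdha the 6 livers held 2 islands, each in 1 liver. These were 22 kb from 37158001 in TCPOBOP replicate 1 and 30.4 kb from 37095601 in TCPOBOP replicate 2. A stretch of 115.6 kb before the end island, from 37180001 to 37295600, was free of islands in all 6 livers.

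Most of Pcdhb was empty in the 6 livers. The longest stretch with no island in any of them ran for 296.4 kb, from 37340401 to 37636800, and took in the end of Pcdha and most of Pcdhb. The next, 122.8 kb from 37679201 to 37802000, led up to the Pcdhg group. Between these 2, islands near the end of Pcdhb were listed in 3 livers. Vehicle replicate 3 had islands of 13.2 and 9.6 kb from 37636801 and 37653201, TCPOBOP replicate 1 had 18.4 kb from 37660801, and TCPOBOP replicate 3 had 17.6 kb from 37655201. By score the islands of vehicle replicate 3 ranked 7872 and 9896 of 12430 and that of TCPOBOP replicate 3 5694 of 6295, in the lower part of their lists, while that of TCPOBOP replicate 1 stood near the middle at 6978 of 13759. None of them reached the score minimum of 84.6, the highest of the lowest scores in the 6 lists, so with that minimum Pcdhb was at 0% in all 6 livers. That minimum sets scores of different lists side by side, and the lowest scores of the lists ran from 41.0 to 84.6. The 0% therefore depends on the minimum chosen.

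The comparison of treatments asked whether TCPOBOP altered H3K27me3 within 3 h. Pcdhg cover averaged 67.0 ± 8.22% for vehicle and 67.4 ± 15.1% for TCPOBOP (SD, n = 3 livers each), and the difference of 0.44 percentage points had an exact permutation p of 1. Whole-window cover averaged 18.3 ± 1.48% and 20.4 ± 2.91% (SD, n = 3 livers each), and the difference of 2.13 percentage points had an exact permutation p of 0.3. Pcdha differed by 5.79 percentage points, between 10.2 ± 3.73 for vehicle and 15.9 ± 6.19% for TCPOBOP (SD, n = 3 each, exact permutation p = 0.3), and Pcdhb by 1.63 (exact permutation p = 1). The livers of the 2 treatments overlapped in each case. These tests were two-sided over 20 labellings and could not give a p under 0.1; adjusted over the 6 stretches tested, flanks included, every p was 0.9 or 1. The Pcdhg difference turned to -3.19 with the score minimum and to -5.19 with every list at the same covered length, and with 1 liver left out it ran from -5.19 to 9.04. Its sign is therefore not settled by these lists.

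**Figure D4:**
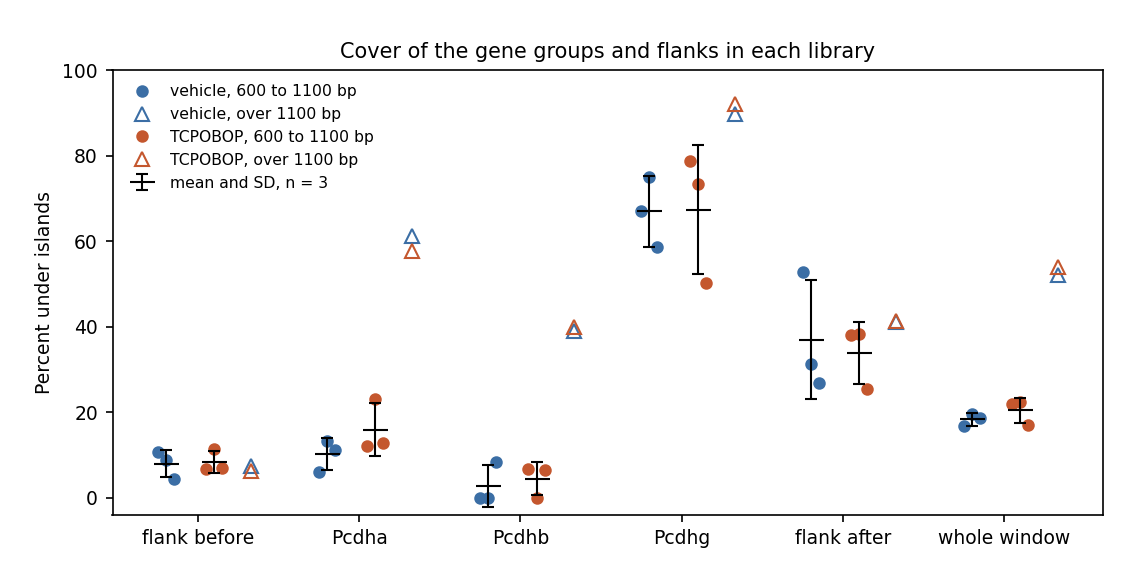
Percent of each stretch under islands, with 1 filled point per liver for 600 to 1100 bp, bars at the mean and SD of 3 livers, and open triangles for the 2 libraries of fragments over 1100 bp; vehicle in blue and TCPOBOP in orange. Treatments overlap in every stretch, and the triangles stand far above the points in Pcdha and Pcdhb but not in the flanks.

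No bin of the window separated the treatments. Of its 39 bins with an island in any of the 6 livers, 0 were higher in all vehicle than in all TCPOBOP livers, against a background of 2.55% of such bins, and 0 were higher in all TCPOBOP livers, against 0.841%. With so few bins, a count of 0 is near these backgrounds. A limma fit over 36857 bins of the genome called 0% of them in either direction at an adjusted p of 0.05, with 283 higher and 949 lower for TCPOBOP at an unadjusted p under 0.05. Of the 23 window bins in that fit, 0 also had an unadjusted p under 0.05. The lowest limma p in the window was 0.102 (limma adjusted p = 0.906), for the bin from 37330001 to 37340000 at the end of Pcdha. Vehicle replicates 1, 2 and 3 had 0, 100 and 100% of that bin covered, against 0, 0 and 20% for TCPOBOP, with vehicle replicate 1 as empty as TCPOBOP replicates 1 and 2. The 0 calls do not show that cover was equal. In 1 simulation the values of each real bin were shuffled over the livers, and some bins were changed with little spread. There limma did not recover the changed bins. In another, with evenly noisy values in all bins, it did. Real bins were not so even, with standard errors in the window from 0.31 to 38.9 percentage points. That recovery therefore does not show what limma could detect in these lists.

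Island territory was shared between livers to a larger extent in this window than over the autosomes, and the flank after the window showed much the same. The Jaccard index, the length covered in both livers over the length covered in either, ran from 0.46 to 0.731 within the window, with a mean of 0.573 over 15 pairs. It was above the autosomal index of the same pair in 15 of 15 pairs, whose mean was 0.409. In the flank after the window it had a mean of 0.516 and was above the autosomal index in 14 of 15 pairs. The pairs share livers, and both stretches had more cover than the autosomes, with which the index can rise, so these values are a description. Pairs of the same treatment had a mean of 0.589 and pairs of different treatments 0.563, a difference of 0.026 (exact permutation p = 0.3 over 10 splits). Of 333.6 kb of the window covered in any liver, 89.6 kb (26.9%) was covered in all 6 and 98.4 kb (29.5%) in 1 alone. Over the autosomes these shares were 12.1 and 32.4%. Within Pcdhg 39.7% of the covered length was common to all 6 livers, within Pcdha 7.41% and within Pcdhb 0%.

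Fragments over 1100 bp showed islands in all 3 gene groups. In the vehicle liver of replicate 1, cover went from 6 to 61.2% in Pcdha, from 0 to 39.1% in Pcdhb and from 67.1 to 89.8% in Pcdhg between the 2 fragment classes. In the TCPOBOP liver of replicate 1 it went from 12 to 57.7%, from 6.81 to 40% and from 78.7 to 92%. The values of the 2 livers were close to each other in fragments over 1100 bp, and their Jaccard index in the window was 0.815. It was 0.764 over the autosomes and 0.938 in the flank after the window. Both lists held an identical island near the end of Pcdhb, 51.6 kb from 37632801 to 37684400, which enclosed all 4 of the Pcdhb islands of the 6 livers. Stretches of 23.2 kb in Pcdhb (37448001 to 37471200) and 22.4 kb in Pcdha (37245601 to 37268000) lay under islands in both of these lists and in 0 of 6 livers. With 1 library per treatment there is no test. The longer fragments were also the longer lists, and the titles of their libraries alone name a digestion. Fragment class, digestion and amount of territory therefore cannot be told apart.

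The flanks showed no gain of that size. From 600 to 1100 bp to over 1100 bp, cover moved from 10.6 to 7.52% and from 6.80 to 6.24% before the window, and from 52.8 to 41.0% and from 38 to 41.3% after it, for vehicle and TCPOBOP respectively. Over the autosomes it went from 13.8 to 26.4% and from 10.0 to 27.3%. Nearly all window territory of the shorter fragments, 99.5 and 99.6%, lay inside the islands of the longer ones, against 83.3 and 86.0% over the autosomes. When all 8 lists were cut to 174 Mb, Pcdhg kept 89.8 and 92% in the longer fragments, Pcdha had 0 and 19.5% and Pcdhb 0 and 0%. With each pair of lists cut to the same length instead, the longer fragments of the vehicle liver had 22.3% of Pcdha and 19.1% of Pcdhb, against 6 and 0% in the shorter ones. For TCPOBOP the corresponding values were 19.5 and 0%, against 12 and 6.81%, so Pcdhb cover was higher in the longer fragments for vehicle and lower for TCPOBOP. These cuts kept the islands of highest score in each list, so what they leave follows the score ranks and is a description. Pcdhg had more cover than the other 2 groups in both fragment classes, at 174 Mb and in the uncut lists.

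The flank before the window, whose nearest genes in order are Zmat2, Hars2 and Hars, was sparsely covered, at 10.6, 8.72 and 4.48% with vehicle and 6.80, 11.4 and 7.04% with TCPOBOP. Hars and Hars2 encode the histidyl-tRNA synthetases of cytosol and mitochondria. The window exceeded this flank in 6 of 6 livers, by 11.2 ± 3.21 percentage points (SD, n = 6, exact sign-flip permutation p = 0.031). In it, 8.8 kb from 36880001 and 5.6 kb from 36672801 were covered in all 6 livers. The 5.6 kb lay under no island in either list of fragments over 1100 bp. Pcdhg exceeded it by 59.0 ± 10.1 percentage points (SD, n = 6, exact sign-flip permutation p = 0.031, 6 of 6 livers). The flank after the window begins in gene order with Diaph1, a formin gene, Hdac3, a histone deacetylase gene, and Rell2, Fchsd1 and Arap3. Pcdh1 and Pcdh12, protocadherin genes outside the clusters, follow. It was covered to 52.8, 31.2 and 26.9% with vehicle and 38, 38.2 and 25.4% with TCPOBOP. Pcdhg exceeded it in 6 of 6 livers by 31.8 ± 10.9 percentage points (SD, n = 6, exact sign-flip permutation p = 0.031). The window as a whole, in contrast, was covered less than this flank in 6 of 6 livers, with a difference of -16.1 ± 10.4 percentage points (SD, n = 6, exact sign-flip permutation p = 0.031). With the libraries of a ChIP sample merged that difference was -6.80 (exact sign-flip permutation p = 0.094). The flank after the window also exceeded the flank before it in 6 of 6 livers, by 27.3 ± 8.52 percentage points (SD, n = 6, exact sign-flip permutation p = 0.031). The longest stretches common to all 6 livers there were 18 kb from 38228001 to 38246000 and 14.4 kb from 38209201 to 38223600. Total cover of each flank overlapped between treatments, with differences of 0.45 percentage points before the window (exact permutation p = 0.9) and -3.07 after it (exact permutation p = 0.8). Of 33 bins with any island in the flank after the window, 1 was higher in all TCPOBOP livers and 1 in all vehicle livers. The bin from 38200001 to 38210000 was covered to 68, 32 and 68% with vehicle and 100% in each TCPOBOP liver. The bin from 38430001 to 38440000 was covered to 100, 32 and 80% with vehicle and 16, 24 and 0% with TCPOBOP. Each is 3.03% of the 33 bins, beside the backgrounds of 0.841% and 2.55%, and neither is a result on so few bins.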

How the data were processed

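H3K27me3 ChIP-seq island lists of 8 libraries were used. Per the submitters' processing notes, Bowtie2 2.3.2, SICER 1.1 and mm9 were used, with no roles given. The lists have no header, and the deposited score of each island is the authors' value, a positive decimal, with its calculation not stated in the labels or files. The deposited coordinates lie on a grid of 400 bp, and file names carry a gap of 2400 bp. Islands were called per library; whether an input was used is not stated there either. Replicates were separate livers, unpaired, since the labels name no shared animal. Lists hold no reads, so no counting interval was computed.

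Cover was computed per library on the grid, with Python 3.11.15, numpy 2.4.6 and pandas 2.3.3, and figures with matplotlib 3.10.9. Stretches were compared between treatments by two-sided exact permutation of the 6 livers, and with each other by exact sign flips over livers, with Benjamini-Hochberg adjustment. With R 4.3.3, limma 3.58.1 (trend on) was fitted to the cover of all bins at 50% or more in at least 2 libraries. The scripts were tested on simulated data. The simulation for limma was changed after seeing its output: values drawn with replacement gave false calls, shuffled values gave neither false calls nor recovered bins, and evenly noisy values gave full recovery. Alternatives were a score minimum of 84.6, lists cut by score to 174 Mb, merging of the libraries of a ChIP sample, wider stretches, bins of 5 and 20 kb, other limits of presence, the arcsine scale, no filter, a replicate block and each liver left out. The 8 comparisons between stretches and the alternatives that split the lists by lowest score were added after the data were seen. The named stretches were the longest covered in all 6 or in 0 of 6 livers (up to 5 each) and the highest-scoring island of each list; the edges, gaps and other islands named were chosen after their values were seen. The window and the gene groups were chosen with earlier results of these data known. Columns of other samples used: 0.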

Additional observations from a re-analysis of the deposited data

How the results depend on the processing

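The exact tests of cover between treatments could not pass 0.05 with 3 livers a group, under any alternative. The sign of the Pcdhg difference (0.44 percentage points) turned under a score minimum (-3.19), for lists of equal covered length (-5.19), with ChIP samples merged (-2.67) and among the lists whose lowest score was 70 or more (-5.33). With 1 liver left out it ran from -5.19 to 9.04, negative without vehicle replicate 3 (-3.70), TCPOBOP replicate 1 (-5.19) or TCPOBOP replicate 2 (-2.52). For Pcdha it was -0.23 among the lists with a lowest score of 50 or less, and 2.23 to 7.77 with 1 liver left out; for Pcdhb -0.35 with ChIP samples merged, and 0.22 to 4.44. The whole window kept its sign, at 1.19 to 3.81 with 1 liver left out, but its difference fell to 0.14 at equal covered length and to 1.04 with ChIP samples merged. Before the window the difference was -1.44 among the lists of 70 or more and ran from -1.28 (without vehicle replicate 3) to 1.80, with -1.03 without TCPOBOP replicate 2. After it the difference became 3.17 at equal covered length and 8.96 among the lists of 50 or less, and ran from -8.11 to 4.85 (without vehicle replicate 1), with 1.16 without TCPOBOP replicate 3. The Jaccard difference was -0.0657 with ChIP samples merged and ran from -0.0408 to 0.103, at -0.00602, -0.0284 and -0.0408 without vehicle replicates 1, 2 and 3. The causes were not tested.

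Bins present in all livers numbered 19 at 5 kb and 4 at 20 kb, and 10 to 16 with 1 liver left out, 16 without TCPOBOP replicate 3. Separated bins numbered 1 higher with vehicle at equal covered length. With 1 liver left out, 0 to 2 were higher with vehicle and 0 to 4 higher with TCPOBOP. Shares over all bins were not computed for these settings, so these counts are not read as results. Why they moved was not tested. limma called 0 bins of the window under every alternative run, with a lowest adjusted p of 0.307 to 1. Genome-wide it called 0 bins except without vehicle replicate 3, where it called 21 higher and 473 lower with TCPOBOP. The lead of the longer fragments in window cover, 35.4 percentage points for vehicle and 32.1 for TCPOBOP, became 14.7 and 6.27 with the pair's lists at equal covered length. For TCPOBOP it was 37.5 with a score minimum set for the pair. That minimum was 75.1, the lowest score in its list of longer fragments.

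Pcdhg exceeded Pcdhb by 61.2 to 67.5, Pcdha by 51.6 to 57.5 and the flank after by 29.3 to 35.2 percentage points with 1 liver left out. Pcdha exceeded Pcdhb by 6.69 to 10.7 and the window the flank before by 10.4 to 12.2. Pcdhg exceeded the flank before by 56.4 to 62.2, the flank after the flank before by 24.3 to 29.0, and the window differed from the flank after by -17.6 to -12.1. With 5 livers the smallest sign-flip p is 0.0625, so each such p missed 0.05 by construction. At equal covered length Pcdha exceeded Pcdhb by 2.45 (exact sign-flip permutation p = 0.375), and with ChIP samples merged the window differed from the flank after by -6.80 (exact sign-flip permutation p = 0.094).

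Same-numbered livers deviated together with correlations of 0.0266, 0.0158 and 0.0599 over 36857 bins, so the numbers were not taken as pairs. With the replicate block, limma again called 0 bins of the window (lowest adjusted p 0.786), and the Pcdhg difference of 0.44 was not called.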
